A study of Mus musculus with 4 samples.

Results

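The genes described here are the heat shock proteins and their DnaJ cochaperones in mouse heart muscle after infarction. They were taken by symbol from the table of gene counts: every gene whose symbol starts with Hspa, Hspb, Hsp90, Hsph or Dnaj, together with Hspd1, Hspe1 and Cryab, and without Hspbp1 and Hspbap1. That gave 72 of the 21552 genes in the table. By symbol, 9 of them were listed as small heat shock proteins, Hspb11 included, and 10 as HSP70 chaperones. The rest were 3 HSP110 exchange factors, 3 HSP90 chaperones, 2 mitochondrial chaperonins, and 4, 13 and 28 DnaJ proteins of class A, B and C. The study sequenced polyadenylated RNA from hearts of 2 infarcted and 2 uninjured C57BL/6 mice, 4 libraries in all. In the infarcted mice the left anterior descending artery of the heart had been tied off for good, and their tissue was the remote area, myocardium away from the infarct, 7 days later. The labels give the term remote area to the uninjured hearts as well, and they name no sham operation, age, sex or batch. Each infarcted or uninjured replicate is 1 library, and p-values measure the spread between these libraries.

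Heat shock proteins are chaperones: they bind unfolded or partly folded proteins, keep them from aggregating, and help them fold or pass them on for degradation. HSP70 chaperones work in cycles of ATP hydrolysis that DnaJ proteins start through their J domain and that HSP110 proteins help to end by exchanging the nucleotide, while HSP90 acts later on kinases, steroid receptors and other clients. The chaperonin Hspd1 with its lid Hspe1 folds proteins in the mitochondrial matrix, Hspa5 and Hsp90b1 work in the endoplasmic reticulum, and small heat shock proteins such as Cryab and Hspb7 are abundant in muscle, where they hold sarcomeric and cytoskeletal proteins.

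The stress-inducible genes of this family are known targets of the heat shock factor Hsf1, which binds inverted repeats of the unit GAA. Promoter sequences are shown here for the members in which such repeats were found and whose levels the results below turn on, and for the members with an endoplasmic reticulum stress element. They are RefSeq reference sequence on GRCm38.p6, 5′ to 3′ on the strand of the gene, searched over the 250 bases before the start, and the capitals mark GAANNTTC or TTCNNGAA in the first group. Of the 72 members, 57 had a promoter window, and 14 of these (24.6%) held the motif, against 14.5% of 27025 genes with a window. No window was used for Cryab, Dnajc2, Dnajc5, Dnajc5b, Dnajc11, Dnajc12, Dnajc18, Dnajc22, Dnajc30, Hsp90aa1, Hsp90ab1, Hspa8, Hspa9, Hspa13 or Hspb2. The Hspa1a and Hspa1b elements lay 104 bases before the start and their 68 printed bases were the same letters, as were 247 of the 250 bases before the start (98.8%). The Dnajb4 match lay before the more downstream of its RefSeq starts, inside the gene.
Hspa1a, chr17:34972223-34972290, minus strand: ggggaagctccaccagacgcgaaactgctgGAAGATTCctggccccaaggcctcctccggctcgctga
Hspa1b, chr17:34959305-34959372, minus strand: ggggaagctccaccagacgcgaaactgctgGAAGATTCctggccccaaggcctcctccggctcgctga
Dnajb4, chr3:152193846-152193889, minus strand: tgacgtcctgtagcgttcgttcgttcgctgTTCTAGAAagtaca
Dnajc10, chr2:80315254-80315321, plus strand: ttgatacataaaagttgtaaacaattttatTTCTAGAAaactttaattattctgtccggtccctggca
Hspb1, chr5:135887772-135887859, plus strand: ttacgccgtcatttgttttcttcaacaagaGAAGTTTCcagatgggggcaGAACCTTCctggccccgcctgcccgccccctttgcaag

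The pair Hspd1 and Hspe1 is transcribed from opposite strands with overlapping 5′ ends. A run of 18 bases belongs to a window of each gene and is printed here from either strand. It holds 3 overlapping matches of the motif, so it also matches the longer form with 3 units, GAANNTTCNNGAA or TTCNNGAANNTTC, which was found in 3 members (Dnajb6, Hspd1 and Hspe1, 5.26%) and in 0.514% of all genes with a window. All 18 bases lie in annotated exons. For Hspd1 they lie before the more downstream of its RefSeq starts, inside the gene, and its other window held no match.
Hspd1, chr1:55088059-55088076, minus strand: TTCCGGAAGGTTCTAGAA
Hspe1, chr1:55088059-55088076, plus strand: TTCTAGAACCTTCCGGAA

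The endoplasmic reticulum stress element, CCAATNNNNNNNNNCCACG, is the site through which the unfolded protein response is known to act on chaperone genes. It was found in 3 members, Hspa5, Hsp90b1 and Dnajc3 (5.26%), and in 0.130% of all genes with a window. The Hsp90b1 window held 2 matches, 1 on each strand.
Hspa5, chr2:34772025-34772043, plus strand: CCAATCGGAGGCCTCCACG
Dnajc3, chr14:118937797-118937875, plus strand: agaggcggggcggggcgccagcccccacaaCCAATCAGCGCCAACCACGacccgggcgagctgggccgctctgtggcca
Hsp90b1, chr10:86705510-86705686, minus strand: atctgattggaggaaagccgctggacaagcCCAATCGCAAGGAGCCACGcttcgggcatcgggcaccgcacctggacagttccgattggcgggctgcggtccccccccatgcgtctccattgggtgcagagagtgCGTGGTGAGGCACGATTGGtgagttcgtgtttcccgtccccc

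The libraries held 35715115 to 70885393 counts, and genes of the mitochondrial genome took 36.7% to 48.4% of them. Levels are given as CPM, each gene's counts scaled to a common library size, adjusted by edgeR's trimmed mean of M-values (TMM). Markers of cardiomyocytes were abundant in every library, and their summed level was 33461 and 29977 CPM in infarcted replicates 1 and 2 against 49954 and 59436 CPM in uninjured replicates 1 and 2. Summed fibroblast markers were 6736 and 5799 CPM against 897 and 883 CPM, and macrophage markers 246 and 247 CPM against 96.0 and 84.1 CPM. Atrial markers summed to 2011 CPM in infarcted replicate 2 and to 49.5 to 295 CPM elsewhere. The fold change of genes also ran with transcript length: its median on the log2 scale was -0.61 for genes with a longest transcript up to 1000 nucleotides and 0.20 for those over 4000 nucleotides, and the same medians between uninjured replicates 1 and 2 were -0.41 and 0.13.

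In the remote area some members rose and others fell. Of 8 listed nuclear-encoded chaperones of mitochondria 7 fell, among them Hspa9, Hspd1, Hspe1, Dnaja3 and Dnajc15, against 14.6% of all tested genes. Hspa1a, Hspa1b, Hspa1l, Hspa2, Hsp90aa1, Dnajb1, Dnajb4, Dnajc1 and Dnajc10 rose, 9 of 65 tested members (13.8%), against 18.3% of all tested genes. Each of these edgeR calls was lost without uninjured replicate 2, as were nearly all calls among all tested genes. With all libraries, DESeq2 left Hspa1a, Hspa1b, Dnajb1 and Dnajc1 uncalled. The abundant members, Hspa8, Hsp90ab1, Cryab and Hspb7, did not pass the test. In these bulk samples, fewer cells of a type and less RNA per cell cannot be told apart. Of the 72 members, 65 passed the filter on low counts. The 7 that did not were Dnajb7, Dnajb8, Dnajb13, Dnajc5b, Dnajc5g, Dnajc22 and Hspb9, all at or below 0.191 CPM in every library, and Dnajb8 and Dnajc5g had no counts at all.

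By edgeR's quasi-likelihood test with Benjamini-Hochberg adjustment over 13905 genes, called at an adjusted p below 0.05, 9 of the 65 members rose (13.8%) and 14 fell (21.5%). The background was 18.3% of all tested genes called higher, 14.6% called lower and 33.0% called either way, against 35.4% of the members. The share called was thus near the background. The groups did not overlap for 47 members (72.3%), against 70.0% of all tested genes. The median log2 fold change was -0.25 over the members and 0.02 over all tested genes. The plot by role shows the spread of these values.

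**Figure D1:**
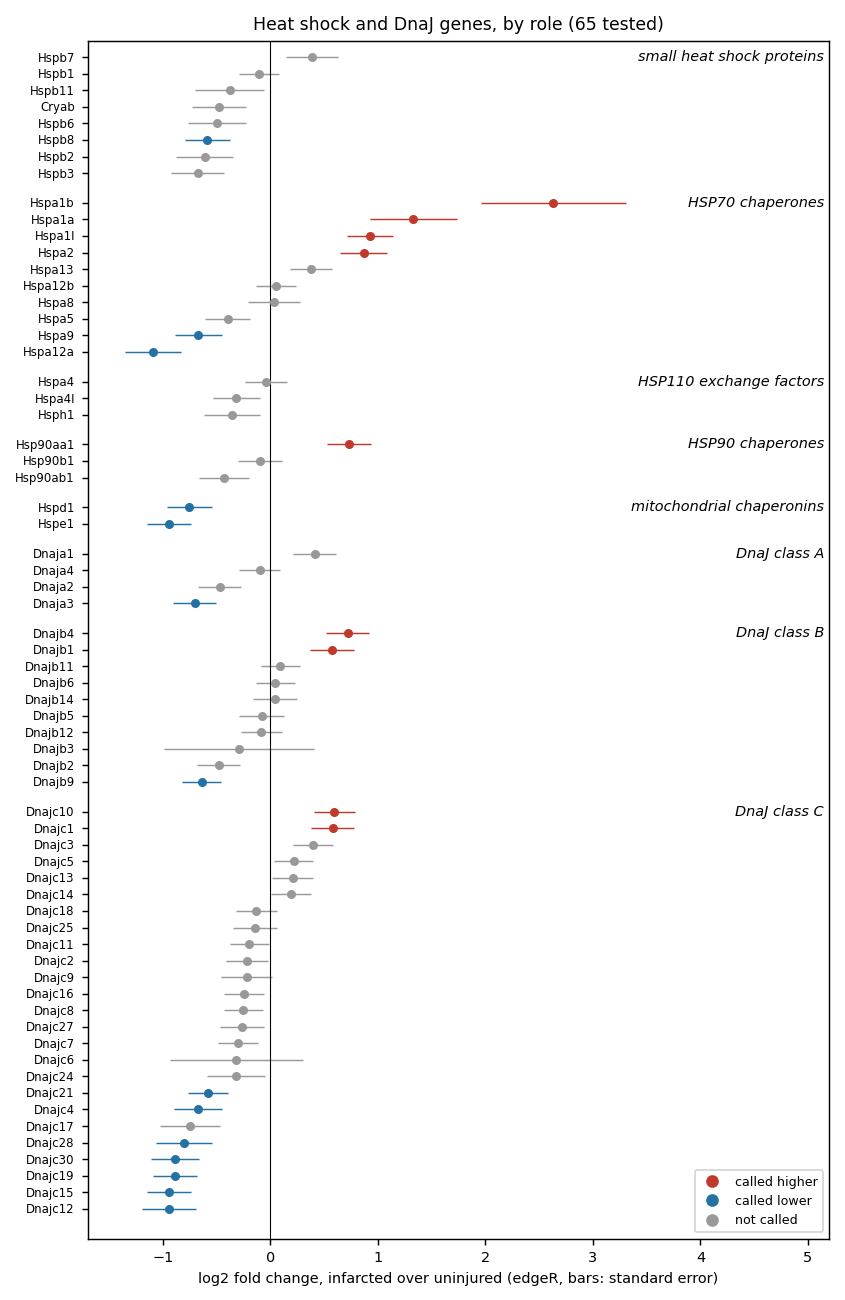
Log2 fold change of each of the 65 tested members, infarcted over uninjured (horizontal axis), grouped by role (vertical axis), with edgeR's estimate as a point and its standard error as a bar. The 9 members called higher are red, the 14 called lower are blue and the 42 not called are grey; the calls in both directions come from several roles, and both mitochondrial chaperonins are among the lower ones.

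DESeq2's Wald test called 5 members higher and 15 lower, against 17.0% and 14.9% of all genes. It called all 14 members that fell by edgeR, and of those that rose it left Hspa1a, Hspa1b, Dnajb1 and Dnajc1 uncalled. With library totals in place of TMM, the median of all genes moved from 0.02 to 0.36 and that of the members from -0.25 to 0.10, so that 16 members were called higher and 3 lower, against 31.5% and 5.65% of all genes. Relative to all genes the members' median was below on both scales. With the trend of level with transcript length removed, 20 members were called (8 higher and 12 lower, background 31.0%), and 18 of the 23 kept their call.

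Calls also rested on single libraries. edgeR called 14 members without infarcted replicate 1 (1 higher and 13 lower, background 26.5%), 13 without infarcted replicate 2 (6 higher and 7 lower, background 22.5%) and 16 without uninjured replicate 1 (4 higher and 12 lower, background 24.5%). Without uninjured replicate 2 it called 0 members, against 0.77% of all genes. At an unadjusted p below 0.05 there were still 22 (background 30.1%), and DESeq2 called 5 members, all lower (background 12.3%). Hspe1, Dnajc15, Dnajc19, Dnajc30 and Hspa1l kept their edgeR call in 3 of the 4 fits that leave out a library, and Dnajb1, Dnajb9, Dnajc1 and Dnajc10 in 0 of them.

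The mitochondrial members were a list of 8, drawn up with earlier results of these data known, so its count of calls is descriptive. They were the matrix HSP70 Hspa9, the chaperonins Hspd1 and Hspe1, the DnaJ proteins Dnaja3, Dnajc15, Dnajc19 and Dnajc30, and Dnajc11. All but Dnajc11 fell, 7 of 8, against 14.6% of all tested genes, and the median log2 fold change of the 8 was -0.82. Hspa9, also called mortalin, pulls precursor proteins through the inner membrane and folds them. Its level was 488 and 475 CPM in infarcted replicates 1 and 2 and 720.4 and 809.5 CPM in uninjured replicates 1 and 2. The groups stood well apart, and Hspa9 was 1.59-fold lower after infarction (log2 fold change -0.67 ± 0.22 SE, edgeR adjusted p = 0.0324).

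Hspd1 (HSP60; GRCm38 chr1:55077835-55088243, minus strand) forms the ring of the mitochondrial chaperonin. It stood at 227 and 212 CPM after infarction and at 349 and 391 CPM in uninjured hearts. This was a 1.69-fold lower level (-0.76 ± 0.21 SE, edgeR adjusted p = 0.0142), with no overlap. Of the 50-base sequences of Hspd1, 42.1% also occur in other loci, mostly the pseudogene Hspd1-ps3. Hspe1 (HSP10; chr1:55088132-55091307, plus strand), the lid of that ring, shares the 18-base element shown above with Hspd1. Its level was 35.2 and 33.4 CPM against 55.7 and 76.1 CPM, 1.92-fold lower (-0.94 ± 0.20 SE, edgeR adjusted p = 0.0034). Hspe1 has a short transcript, and with the length trend removed its value was -0.41 with an edgeR adjusted p of 0.057, no longer called. Per kilobase of transcript, Hspe1 made up 28.1% and 28.4% of the sum of Hspe1 and Hspd1 after infarction and 28.7% and 32.8% without, so the pair kept nearly the same proportion in 3 of the 4 libraries.

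The DnaJ partners of mitochondria followed the same direction. Dnaja3 (Tid1), the main class A partner of Hspa9, had 87.3 and 67.9 CPM in the infarcted libraries against 121 and 133 CPM in the uninjured ones (-0.70 ± 0.20 SE, edgeR adjusted p = 0.0165). Dnajc15 and Dnajc19 belong to the motor that drives protein import at the inner membrane. Dnajc15 had 36.6 and 29.5 CPM against 54.5 and 72.3 CPM (-0.94 ± 0.21 SE, edgeR adjusted p = 0.0040). Dnajc19, mutated in a human dilated cardiomyopathy with ataxia, had 16.8 and 16.7 CPM against 27.1 and 34.9 CPM (-0.89 ± 0.20 SE, edgeR adjusted p = 0.0051). Both genes were lower in each infarcted heart than in either uninjured one, and in uninjured replicate 2 they were higher than in replicate 1.

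Dnajc30, which acts with the ATP synthase and on complex I repair, had 15.3 and 13.9 CPM against 21.6 and 32.3 CPM (-0.89 ± 0.22 SE, edgeR adjusted p = 0.0090). Of its 50-base sequences, 24.3% also occur in other genes, nearly all in Bud23, which overlaps it on the opposite strand. Dnajc11, a protein of the cristae junction complex, was not called, at 50.4 and 48.9 CPM against 52.9 and 60.8 CPM (-0.20, edgeR adjusted p = 0.439). With the length trend removed 6 of the 8 were called lower and the median was -0.61. With library totals as the scale the median was -0.48, and without uninjured replicate 2 it was -0.66, where edgeR called 0 and DESeq2 3 of the 8.

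**Figure D2:**
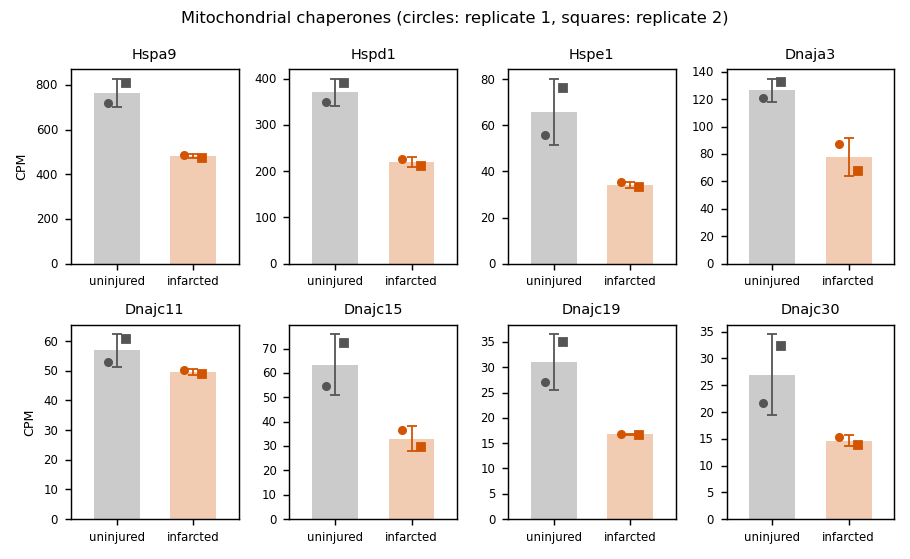
CPM of the 8 mitochondrial members in each library (circles, replicate 1; squares, replicate 2), with bars at the group mean and error bars of 1 SD (n = 2). The infarcted libraries lie below both uninjured ones in all 8 panels, by the smallest margin in Dnajc11.

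The summed level of the mitochondrial members moved with the cardiomyocyte markers. Of these markers 4 of 8 were called lower and 0 higher, against a background of 14.6% and 18.3% of all tested genes. As a percentage of those summed markers, the 8 members were 2.86% and 2.99% after infarction and 2.81% and 2.71% in uninjured hearts. Hspd1 alone was 0.678% and 0.706% of the markers after infarction and 0.698% and 0.658% without. The part of cell composition in the lower CPM was not tested. Other genes of mitochondrial folding and protein quality control, 11 listed proteases and cofactors, had 6 called lower and 0 higher, against the same background. Their median was -0.57. The median was -0.22 with library totals and -0.27 without uninjured replicate 2, where neither edgeR nor DESeq2 called any. Clpp, a matrix protease, had 22.5 and 21.1 CPM against 36.1 and 57.5 CPM (-1.10 ± 0.23 SE, edgeR adjusted p = 0.0031). Hscb, a DnaJ-type cochaperone for iron-sulfur proteins, was at -1.02 (edgeR adjusted p = 0.0072), and Grpel1, the nucleotide exchange factor of Hspa9, at -0.67 (edgeR adjusted p = 0.0162).

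Among the 10 HSP70 chaperones, edgeR called 4 higher and 2 lower, against 18.3% and 14.6% of all tested genes, with a median of 0.22. DESeq2 called 2 higher and 2 lower, against 17.0% and 14.9%. Hspa1a and Hspa1b are the stress-inducible cytosolic HSP70 genes. They lie near each other on chromosome 17 (Hspa1a at GRCm38 chr17:34969190-34972156, Hspa1b at chr17:34956436-34959238), and both were low. Hspa1a had 70 and 53 counts (1.40 and 1.26 CPM) after infarction and 23 and 36 counts (0.480 and 0.573 CPM) in uninjured hearts. Hspa1b had 32 and 12 counts (0.640 and 0.286 CPM) against 5 and 3 counts (0.104 and 0.0478 CPM). Both were higher in each infarcted heart: Hspa1a by 2.51-fold (1.33 ± 0.41 SE, edgeR adjusted p = 0.0233), and Hspa1b by 6.20-fold (2.63 ± 0.67 SE, edgeR adjusted p = 0.0094), a fold that rests on 8 uninjured counts and depends on the prior count of the fit. DESeq2 gave adjusted p = 0.067 and 0.060.

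Of the 50-base sequences of Hspa1b, 62.3% also occur in Hspa1a, and 58.8% of those of Hspa1a in Hspa1b. No source used here says how such reads were counted, which leaves the split between the pair uncertain. Summed over both genes, the counts were 102 and 65 in the infarcted and 28 and 39 in the uninjured libraries. Hspa1l and Hspa2 are HSP70 genes best known from the testis. Hspa1l, whose start lies 547 bases from that of Hspa1a on the other strand, had 11.4 and 11.1 CPM against 6.03 and 5.78 CPM (0.93 ± 0.22 SE, edgeR adjusted p = 0.0056). Hspa2 had 10.3 and 10.3 CPM against 5.47 and 5.83 CPM (0.87 ± 0.22 SE, edgeR adjusted p = 0.0087). In both genes the libraries of a group lay close together and the groups far apart. For Hspa1l, 71.4% of its 50-base sequences are shared with the locus Gm10501, which was not analysed here.

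Hspa8, the constitutive HSP70, had the highest level of any HSP70 per kilobase of transcript. It stood at 1599 and 1296 CPM after infarction and at 1302 and 1526 CPM in uninjured hearts, with the groups overlapping (0.03 ± 0.24 SE, edgeR adjusted p = 0.930). Its 50-base sequences are shared with other loci at 39.4%. Hspa5 (BiP), the HSP70 of the endoplasmic reticulum, was at 368 and 381 CPM against 476 and 511 CPM, without overlap but not called (-0.40 ± 0.21 SE, edgeR adjusted p = 0.169). Hspa12a, a distant HSP70 relative, fell, from 32.6 and 34.5 CPM to 20.4 and 11.1 CPM (-1.09 ± 0.26 SE, edgeR adjusted p = 0.0088). Infarcted replicate 2, in which Hspa12a was lowest, is also the library with high atrial markers, and the part of that was not tested. Without infarcted replicate 2, Hspa12a was at -0.75 and not called (edgeR adjusted p = 0.071), and without infarcted replicate 1 it was at -1.68.

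The 3 HSP110 exchange factors, Hspa4, Hspa4l and Hsph1, were not called, against 33.0% of all tested genes called either way. Hspa4 had 163 and 149.8 CPM against 162 and 159 CPM, a difference of -0.04 on the log2 scale. Hsph1, the heat-inducible one, had 35.5 and 20.2 CPM against 40.0 and 31.3 CPM (-0.36 ± 0.26 SE, edgeR adjusted p = 0.330), and its groups overlapped. Its value hung on single libraries: without infarcted replicate 1 Hsph1 was at -0.90 and called lower (edgeR adjusted p = 0.022), and it was at -0.04 without infarcted replicate 2, -0.18 without uninjured replicate 1 and -0.53 without uninjured replicate 2. Hspa4l had 43.2 and 35.3 CPM against 58.0 and 39.6 CPM (-0.32), and was called lower with the length trend removed (-0.58, edgeR adjusted p = 0.036).

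Of the 3 HSP90 genes 1 was called, against 33.0% of all tested genes called either way. Hsp90aa1, the inducible cytosolic form, rose from 127 and 104 CPM in the uninjured libraries to 202 and 181 CPM in the infarcted ones, 1.66-fold (0.73 ± 0.20 SE, edgeR adjusted p = 0.0152). Hsp90ab1, the constitutive form, had 1129 and 1386 CPM in the uninjured libraries and 972 and 895 CPM in the infarcted ones (-0.43 ± 0.23 SE, edgeR adjusted p = 0.178). The infarcted libraries were the higher ones for Hsp90aa1 and the lower ones for Hsp90ab1, without overlap in either gene. Per kilobase, Hsp90aa1 made up 13.8% and 13.4% of the sum of both in the infarcted hearts and 7.98% and 5.44% in the uninjured ones. This difference in share was not tested. Of the 50-base sequences of Hsp90aa1, 47.5% also occur in other loci, mostly the pseudogene Gm12346, against 3.44% for Hsp90ab1. Hsp90b1 (GRP94), the form of the endoplasmic reticulum, had 332 and 317 CPM against 334 and 360.3 CPM (-0.10 ± 0.21 SE, edgeR adjusted p = 0.752).

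**Figure D3:**
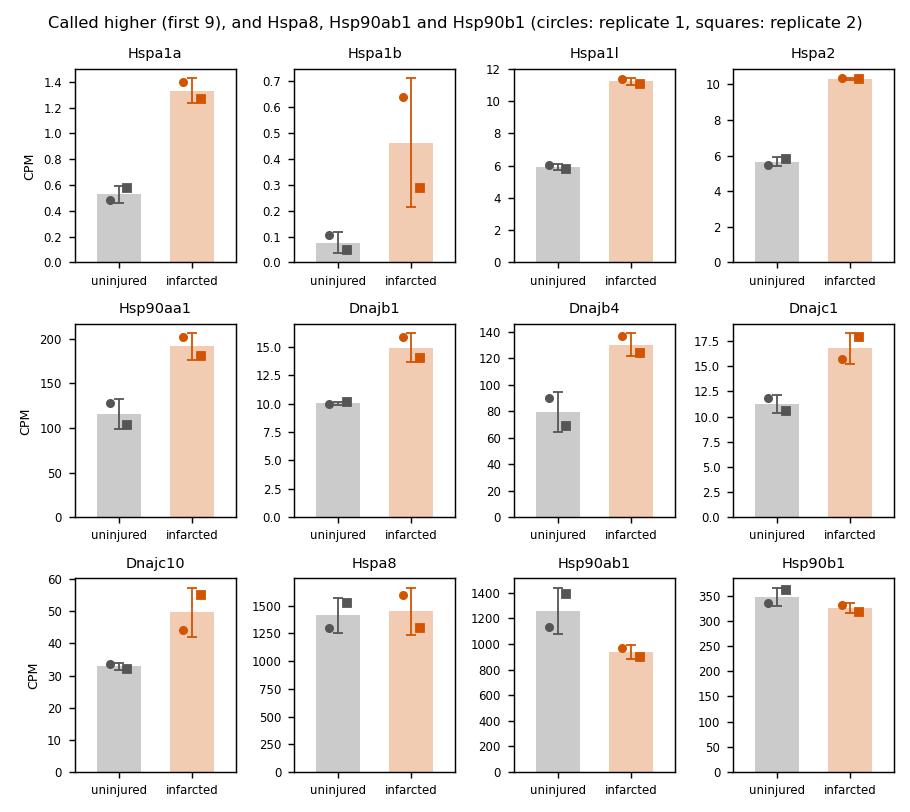
CPM in each library (circles, replicate 1; squares, replicate 2) of the 9 members called higher, then of Hspa8, Hsp90ab1 and Hsp90b1, with bars at the group mean and error bars of 1 SD (n = 2). The infarcted libraries lie above both uninjured ones in the first 9 panels; the groups overlap for Hspa8, and Hsp90ab1 and Hsp90b1 lie lower after infarction without being called.

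Of the 4 class A and 10 class B DnaJ proteins tested, Dnajb1 and Dnajb4 rose, and Dnaja3 and Dnajb9 fell. Of all tested genes, 18.3% were called higher and 14.6% lower. Dnajb1 (HSP40), the inducible partner of Hspa1a, had 15.9 and 14.0 CPM against 9.94 and 10.1 CPM (0.57 ± 0.20 SE, edgeR adjusted p = 0.0451). Dnajb4 had 137 and 124 CPM against 89.8 and 68.5 CPM (0.72 ± 0.20 SE, edgeR adjusted p = 0.0160). Both were higher in each infarcted heart than in either uninjured one. Dnaja1 had 70.4 and 51.1 CPM against 48.5 and 42.8 CPM (0.41, edgeR adjusted p = 0.137), and Dnaja2 had 175 and 152 CPM against 231 and 223 CPM (-0.47, edgeR adjusted p = 0.088, and called lower by DESeq2 at 0.040). Dnajb6, a suppressor of aggregation whose mutations cause a limb-girdle muscular dystrophy, was at 0.04 and did not separate the groups. Dnajb2, a neuronal and muscle cochaperone of HSP70, was at -0.48 (edgeR adjusted p = 0.082).

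The known Hsf1 targets were a list of 15 members from several roles. edgeR called 5 of them higher and 2 lower, against 18.3% and 14.6% of all tested genes. The higher ones were Hspa1a, Hspa1b, Hsp90aa1, Dnajb1 and Dnajb4, and the lower ones Hspd1 and Hspe1. DESeq2 called 2 of the 15 higher and 2 lower, against 17.0% and 14.9%. The median of the 15 was -0.04. It was 0.01 without uninjured replicate 2, where edgeR called 0 of them, 0.06 with the length trend removed, and 0.31 with library totals as the scale, where that of all genes was 0.36. The 14 members with GAANNTTC or TTCNNGAA in the promoter window had 4 called higher and 2 lower with a median of -0.10. The 38 tested members with a window and no match had 4 higher and 9 lower with a median of -0.27. The background was again 18.3% and 14.6%, and the difference between these sets was not tested. Hspa1a and Hspa1b, whose promoters are nearly the same, are among those with the motif called higher. Hspb1 and Hsph1, which hold the motif, were not called. The 3 members with the longer form were Hspd1 and Hspe1, both lower, and Dnajb6, not called. Of the heat shock factors, 3 were tested and 0 called: Hsf1 was at -0.37 (25.7 and 19.2 CPM against 27.1 and 31.0 CPM), Hsf2 at -0.31 and Hsf4 at -0.86 (edgeR adjusted p = 0.051).

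Of the 10 members of the endoplasmic reticulum, 2 rose and 1 fell, against 18.3% and 14.6% of all tested genes. Their median was 0.07. Dnajc10 (ERdj5), a disulfide reductase that acts with BiP, had 44.3 and 55.1 CPM against 33.7 and 32.1 CPM (0.60 ± 0.19 SE, edgeR adjusted p = 0.0284). Dnajc1 (ERdj1) had 15.7 and 17.9 CPM against 11.9 and 10.6 CPM (0.58 ± 0.20 SE, edgeR adjusted p = 0.0426), and was not called with the length trend removed (0.39, edgeR adjusted p = 0.100). Dnajb9 (ERdj4), which returns the stress sensor Ire1 to its resting state, went the other way, at 26.1 and 27.0 CPM against 43.9 and 38.7 CPM (-0.64 ± 0.19 SE, edgeR adjusted p = 0.0182). The 3 members with the stress element in the promoter, Hspa5, Hsp90b1 and Dnajc3, were not called, and their values were -0.40, -0.10 and 0.40. The other listed genes of folding and the unfolded protein response, 24 tested, had 3 called higher and 1 lower, against the same shares of all genes. Their median was 0.14, and 0.22 without uninjured replicate 2. Edem1, which marks misfolded glycoproteins for removal, had 23.5 and 20.8 CPM against 11.0 and 8.15 CPM (1.22 ± 0.21 SE, edgeR adjusted p = 0.0011). The disulfide isomerase Pdia4 was at 0.78 (edgeR adjusted p = 0.0066), and Herpud1, a stress-induced factor of degradation, at -0.83 (edgeR adjusted p = 0.0071).

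Of the 25 tested class C proteins, which share little beyond the J domain, 2 rose and 7 fell, against 18.3% and 14.6% of all tested genes, with a median of -0.25. Without uninjured replicate 2 edgeR called 0 of them. Outside the list of mitochondrial members above, Dnajc12, Dnajc21, Dnajc4 and Dnajc28 fell. Dnajc4 and Dnajc28 are also known as mitochondrial proteins but were not on that list. Dnajc12, a cochaperone for aromatic amino acid hydroxylases, had 2.98 and 3.17 CPM against 6.26 and 5.56 CPM (-0.94 ± 0.25 SE, edgeR adjusted p = 0.0123). Dnajc21, which acts in ribosome assembly, had 27.4 and 27.7 CPM against 37.6 and 44.6 CPM (-0.58, edgeR adjusted p = 0.0308). Dnajc4 was at -0.67 (edgeR adjusted p = 0.0325) and Dnajc28 at -0.80 (edgeR adjusted p = 0.0359), and neither was called with the length trend removed, Dnajc4 at -0.18 and Dnajc28 at -0.82 with an adjusted p of 0.058. In both genes uninjured replicate 2 was well above uninjured replicate 1, at 28.3 against 19.6 CPM for Dnajc4 and 40.5 against 23.4 CPM for Dnajc28. Without that library Dnajc4 was at -0.39 and Dnajc28 at -0.36.

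The small heat shock proteins held 41.1% to 46.1% of the summed member CPM of a library, and Hspb7, Hspa8, Cryab and Hsp90ab1 together 50.6% to 58.3%. Of the 8 small heat shock proteins tested, 1 was called, against 33.0% of all tested genes called either way. This was Hspb8, which acts with Bag3 in the removal of damaged filamin. It had 264 and 272 CPM against 381 and 425 CPM (-0.59 ± 0.21 SE, edgeR adjusted p = 0.0455). With the length trend removed Hspb8 was not called (-0.34, edgeR adjusted p = 0.148). Cryab, which binds desmin and titin, had 1143 and 1146 CPM against 1322 and 1864 CPM (-0.48 ± 0.25 SE, edgeR adjusted p = 0.161). Without uninjured replicate 1 Cryab was at -0.71 and called lower (edgeR adjusted p = 0.041), and without uninjured replicate 2 it was at -0.22. Hspb7, a heart and muscle form that acts on filamin C, had 2132 and 2579 CPM against 1757 and 1842 CPM (0.39 ± 0.24 SE, edgeR adjusted p = 0.243). Cryab was lower and Hspb7 higher in each infarcted heart, but neither difference passed the test. Per kilobase, Hspb7 was 42.9% and 47.6% of the sum of Hspb7 and Cryab after infarction and 34.9% and 28.5% without. This difference was not tested. Dividing by length leaves the trend of fold change with transcript length in place. The longest transcript has 1117 nucleotides for Cryab and 2769 for Hspb7.

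The other small heat shock proteins were not called either. Hspb6, which protein kinase A phosphorylates, had 935 and 572 CPM against 916 and 1208 CPM (-0.49). Hspb1 (HSP25 in the mouse), a stress-induced member bound to actin filaments, had 57.3 and 63.7 CPM against 59.6 and 70.3 CPM (-0.10). Hspb2 and Hspb3 form a complex in muscle. Hspb2, which overlaps Cryab on the opposite strand, had 25.7 and 34.2 CPM against 33.6 and 57.8 CPM (-0.61), and Hspb3 5.02 and 4.15 CPM against 6.33 and 8.33 CPM (-0.68, edgeR adjusted p = 0.051). Leaving out a library changed this for 3 of them. Hspb6 was called lower without infarcted replicate 1 (-0.97, edgeR adjusted p = 0.043) and at -0.29 without uninjured replicate 2. Hspb2 was called lower without uninjured replicate 1 (-0.96, edgeR adjusted p = 0.044) or infarcted replicate 2 (-0.85, edgeR adjusted p = 0.031) and at -0.18 without uninjured replicate 2, and Hspb3 was called lower without infarcted replicate 1 (-0.90, edgeR adjusted p = 0.045). These transcripts are short, and the correction for length moved their values: the median of the 8 was -0.49 as fitted, -0.25 without uninjured replicate 2 and -0.03 with the trend removed, where Cryab was at -0.01, Hspb2 at 0.03, Hspb3 at -0.07 and Hspb1 at 0.42. Of the 50-base sequences, 24.4% of those of Hspb2 occur in Cryab, and 50.1% of those of Hspb1 in other loci, mostly the pseudogene Hsp25-ps1.

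**Figure D4:**
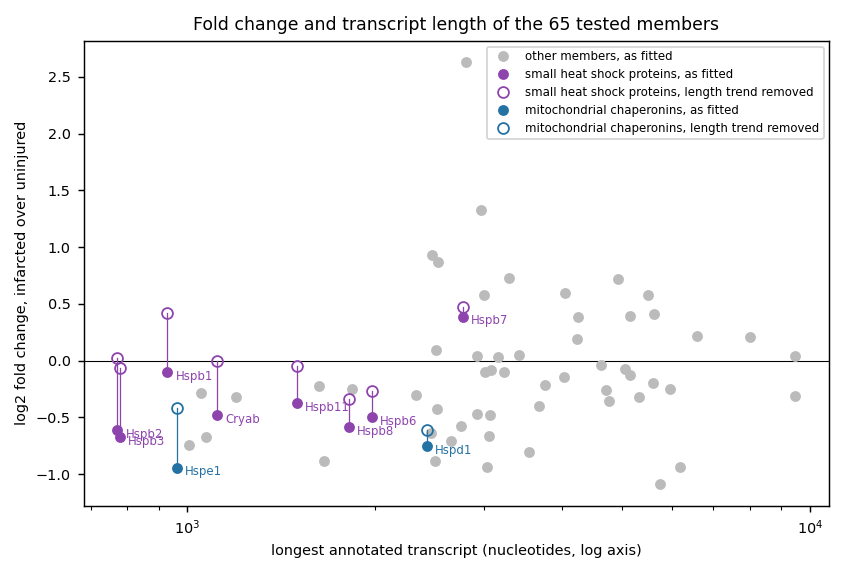
Log2 fold change, infarcted over uninjured, of the 65 tested members (vertical axis) against the length of the longest annotated transcript in nucleotides (horizontal log axis). Filled points are values as fitted, and lines lead to open points with the length trend removed for the small heat shock proteins and chaperonins; Hspb2, Hspb3, Cryab and Hspb1 move up to or above about 0, and Hspd1 stays lower.

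As a percentage of the summed cardiomyocyte markers, Hspb7 was 6.37% and 8.60% after infarction and 3.52% and 3.10% in uninjured hearts, and Cryab 3.42% and 3.82% against 2.65% and 3.14%. All members together were 31.7% and 33.8% against 21.8% and 21.2%, and Hsp90aa1 was 0.604% and 0.604% against 0.255% and 0.175%. Against these markers the groups did not overlap for Hspb7, Cryab, Hsp90aa1 or the sum. The summed markers were themselves lower in both infarcted libraries, so a gene of unchanged CPM also separates by this measure. Hspa8, whose CPM overlapped between groups, was 4.78% and 4.32% after infarction against 2.61% and 2.57%. The share of all genes that separate in this way was not counted. Cells other than cardiomyocytes express most of these chaperones too, fibroblast and macrophage markers were higher in the infarcted libraries, and their part was not tested. Of the immediate-early genes 1 of 8 was called higher, against 18.3% of all tested genes. The sum of the 8 was 495 and 177 CPM against 507 and 265 CPM, higher in replicate 1 of both groups.

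**Figure D5:**
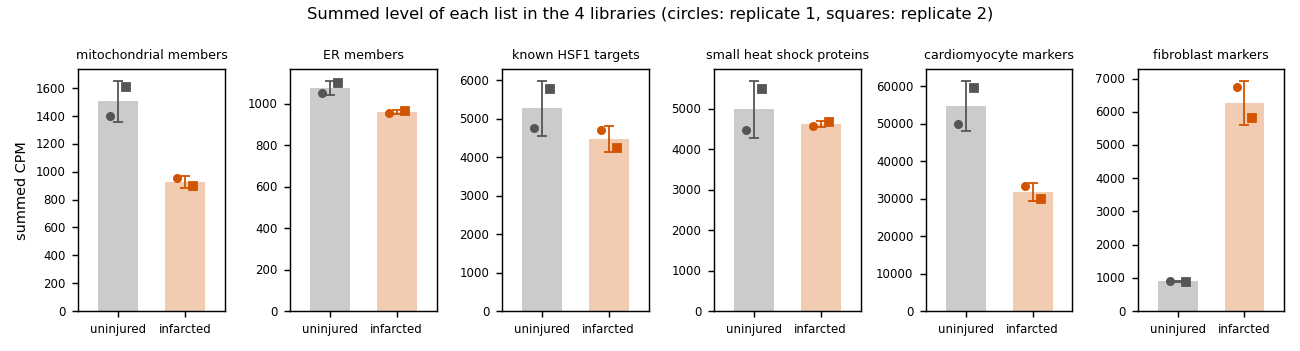
Summed CPM of 4 lists of members and of 2 lists of cell type markers in each library (circles, replicate 1; squares, replicate 2), with bars at the group mean and error bars of 1 SD (n = 2). The mitochondrial members, the endoplasmic reticulum members, the known Hsf1 targets and the cardiomyocyte markers are lower in both infarcted libraries. The Hsf1 targets sum to 4702 and 4223 CPM in infarcted replicates 1 and 2 against 4754 and 5769 CPM in the uninjured ones. The small heat shock proteins overlap between groups, and the fibroblast markers are higher in both infarcted libraries.

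Cochaperones outside the family, 27 listed genes, had 1 called higher and 6 lower, against 18.3% and 14.6% of all tested genes. Their median was -0.23, and 0.12 with library totals. Fkbp4, an immunophilin that joins HSP90 to steroid receptors, had 137 and 85.0 CPM against 332 and 425 CPM (-1.77 ± 0.26 SE, edgeR adjusted p = 0.0004). Unc45b, the myosin chaperone of muscle, had 108 and 94.6 CPM against 169 and 208 CPM (-0.90 ± 0.20 SE, edgeR adjusted p = 0.0051). Ahsa1, which speeds up the ATPase of HSP90, was at -0.70 (edgeR adjusted p = 0.0144). The gene called higher was Fkbp5, named here after its values were seen, at 23.6 and 59.8 CPM against 7.95 and 8.89 CPM (2.31 ± 0.49 SE, edgeR adjusted p = 0.0257). Fkbp5 is a glucocorticoid-induced immunophilin of HSP90 complexes. The 8 subunits of the cytosolic chaperonin TRiC had 0 calls and a median of -0.14, which was 0.0035 without uninjured replicate 2, 0.03 with the length trend removed and 0.21 with library totals. Of 8 genes of aggregate handling, Flnc (707 and 921 CPM against 284 and 287 CPM, 1.51 ± 0.23 SE, edgeR adjusted p = 0.0004) and Synpo2 (0.71, edgeR adjusted p = 0.0152) rose, and the ubiquitin ligase Stub1 fell (-0.64, edgeR adjusted p = 0.0314).

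Splicing of the members was read from the deposited percentages of exon inclusion and splice site use, which the choice of members did not involve. Of 8083 events tested, 40 (25 exons and 15 splice sites) lay in 25 member genes. By edgeR's test of form by group, 0 of the 40 were called, the lowest adjusted p was 0.744, and 2 were at an unadjusted p below 0.05. Of all events 0.0% were called and 6.54% were at an unadjusted p below 0.05, and limma on the logit of inclusion also called 0 member events. The median absolute difference between group means was 1.43 percentage points. Differences over 10 points were seen in 3 events, 1 in Dnajc24 and 2 that describe the same alternative 5′ splice site of Dnajc28. That site was covered by 13 to 26 reads per library. The share of all tested events with differences over 10 points was not counted. The Dnajc24 exon, 139 nucleotides at mm9 chr2:105821139-105821277, was included at 79.7% and 85.4% in the infarcted and 92.2% and 94.9% in the uninjured libraries, from 38 to 77 reads. Hsph1 is known to have a long and a short splice form. Its exon of 132 nucleotides at mm9 chr5:150426040-150426171 was included at 95.7% and 100% against 91.4% and 92.7%. Neither exon was called.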

How the data were processed

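Total RNA was purified from heart, polyadenylated RNA was made into libraries and sequenced as single-end reads of 50 bases, per the labels' protocols. The authors deposited raw counts per gene, whole numbers that were not normalized, and a second table with the percent inclusion of exons and percent use of splice sites, with the reads behind each value. The build is mm9, per the submitters' processing notes. No source used here names the aligner, the counter, its treatment of reads that match several genes or the use of strand.

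Symbols, positions and transcript lengths came from GENCODE M21 (GRCm38), which matched 20450 genes. Hspa14 was not analysed here. All genes were fitted in edgeR 4.0.16 (TMM, filterByExpr, robust quasi-likelihood F-test) under R 4.3.3, with 2 residual degrees of freedom and a common biological coefficient of variation of 19.3%. Standard errors are the absolute log2 fold change over the square root of F. Other settings were DESeq2 1.42.0, other scalings and filters, removal of a loess trend of log2 CPM with transcript length, a replicate block and leaving out each library. Splicing events with at least 10 reads in each library and 5 reads of each form were tested in edgeR, and in limma 3.58.1 on the logit of inclusion. Reads were rounded, and the first form of each splice site event was left out.

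The members and lists were chosen with earlier results of these data known. Members named with values were the 4 with the smallest p in each role and 17 classical members, and every called member and every member under the count filter; of other lists, up to 3 genes with the smallest p. Dnajb6, Dnajc3 and Dnajc11 fall outside that rule and were named after their values were seen. The fits were tested on simulated data.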

Additional observations from a re-analysis of the deposited data

How the results depend on the processing

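Of the 9 members called higher and 14 called lower, DESeq2 kept 5 higher, and library totals as the scale gave 16 higher and 3 lower. Leaving out 1 library gave 0 to 6 higher and 0 to 13 lower in edgeR, and 0 to 3 higher and 2 to 15 lower in DESeq2, lowest in edgeR without uninjured replicate 2. The members' median of -0.25 was 0.10 with library totals, -0.15 with the length trend removed, and -0.31 to -0.17 over the fits without 1 library. Other size factors, filters and leaving out the mitochondrial genome kept both counts within 1.5 times, at 8 or 9 higher and 14 to 17 lower. The replicate block gave 9 higher and 16 lower. The same-numbered libraries deviated together with a correlation of 0.085 across genes, and the labels tie the numbers to nothing shared, so that they were not treated as pairs. For splicing, the replicate block, limma, at least 20 reads and each left-out library all gave 0 member events. Of 684 values over the 43 members whose own values are given, 509 kept direction and side of the threshold, 135 lost and 21 gained a call, and 19 in 9 genes changed sign, none of these genes called. With library totals these were Dnaja4 (0.24), Hspa4l (0.025), Hspa4 (0.31), Hsp90b1 (0.25), Hspb1 (0.25) and Dnajc11 (0.15), and with the length trend removed Hspb2 (0.026) and Hspb1 (0.42). Without infarcted replicate 1, Hspa8 was at -0.20 in edgeR and -0.17 in DESeq2. Without infarcted replicate 2, Dnaja4 was at 0.0030 in edgeR and 0.027 in DESeq2, Hspa4 at 0.020 in DESeq2, and Dnajb6 at -0.064 in edgeR and -0.042 in DESeq2. Without uninjured replicate 1, Dnaja4 was at 0.013, and Hspa8 at -0.083 in edgeR and -0.10 in DESeq2. Without uninjured replicate 2, Hspb1 was at 0.013. Over the edgeR fits without 1 library, Dnaja4 ranged from -0.32 to 0.013, Hspa8 from -0.20 to 0.15, Dnajb6 from -0.064 to 0.045 and Hspb1 from -0.23 to 0.013. The cause was not tested. With 2 mice a group, the depth limits the fold of Hspa1a and Hspa1b and the splicing of members with few reads.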
